A study of Mus musculus with 7 samples.

Results

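Tumour RNA from mice given vesicles from senescent tumour cells was compared with tumour RNA from mice given saline, over nuclear protein-coding genes only. The comparison used 6 of the 7 libraries of the series, 3 per group, and 11398 of the 22451 nuclear coding genes in the deposited table. The tested genes had a TPM (transcript abundance corrected for length, on a fixed total per library) of at least 1 in 3 or more of the 6 libraries, after each library was rescaled to 1000000 over nuclear coding genes. Values below, called coding TPM, are the rescaled values after scaling by median-of-ratios size factors, and differences are on the log2(coding TPM + 1) scale, TIS sEV minus saline. That scale understates the difference of genes with low values.

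All tumours grew from 4T1-12b(luc) cells, a luciferase-carrying line of the mouse mammary carcinoma 4T1, in the fat pad of the mammary gland, in BALB/c mice whose genotype label is WT. At about 150 mm3 they began to receive 6 injections of 50 µl into the tumour, given every other day, and the tumour samples carry the label day 12. The saline group received the carrier only. The TIS sEV group received small extracellular vesicles, membrane particles released by cells, from 4T1 cells made senescent by 72 h in 100 ng/ml nocodazole, an inhibitor of microtubule assembly, and then kept for 72 h without it. The labels give no ages, and they number the replicates without saying that each is a separate animal, so a p-value here reflects the scatter of these libraries, possibly technical, and nothing wider. The lone library of the control vesicle group (Cont sEV) was not used, so an effect of vesicles as such and an effect of their senescent origin cannot be told apart. The columns read as TIS sEV carry the abbreviation NcE, which the labels do not explain.

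Senescent cells stop dividing, keep the cell cycle inhibitor Cdkn1a or its relatives switched on, and release cytokines, proteases and vesicles that act on neighbouring cells. A 4T1 tumour holds carcinoma cells together with macrophages, neutrophils, lymphocytes, fibroblasts and vessels. A whole-tumour RNA library mixes all of these, so fewer cells of a type and less RNA per cell cannot be told apart.

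TIS sEV replicate 2 stood apart from the other libraries. Nuclear coding genes took 28.6% of its deposited TPM and ribosomal RNA 22.9%, against 56.8% to 74.7% and 0.807% to 2.40% in the other 5 libraries of the comparison. The first principal component of the coding genes held 54.4% of the variance and separated this library, and the second held 19.6% and separated TIS sEV replicate 3. Across the tested genes, which are not independent replicates, TIS sEV replicate 2 correlated with the others at r = 0.893 to 0.932, and the others correlated among themselves at 0.939 to 0.980. Sequencing depth cannot be read from TPM and is unknown. List medians and counts are therefore given with 6 libraries and with 5, the latter without TIS sEV replicate 2, and a difference with no number of libraries beside it is from 6.

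Carcinoma genes were present in every library. Values are given for replicates 1, 2 and 3 in that order, saline first and TIS sEV after the word against. Krt8, a keratin of simple epithelia, stood at 1009, 1971 and 1946 coding TPM against 1017, 1049 and 1966. Epcam, an adhesion protein of epithelial cells, stood at 63.6, 89.5 and 182 against 117, 102 and 31.5. Of 14 tested epithelial genes, none separated the groups with 6 libraries, and 1 was lower without overlap with 5. Their median difference was -0.31 with 6 libraries and -0.33 with 5, against -0.039 and -0.0071 over all tested genes.

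No coding gene passed an adjusted p under 0.05 in either fit (limma with Benjamini-Hochberg adjustment over 11398 genes, 0% called). The lowest adjusted p was 0.118 with 6 libraries and 0.212 with 5. At an unadjusted p under 0.05 there were 1804 genes with 6 libraries (15.8%), 941 higher (8.26%) and 863 lower (7.57%) with TIS sEV. With 5 libraries there were 1568 (13.8%), 775 higher (6.8%) and 793 lower (6.96%). The count of passing genes rested on TIS sEV replicate 1: without that library limma called 10 genes, 9 of them higher. Genes are therefore described below by their values in each library and by whether the groups overlap, without a verdict on change. With 6 libraries all TIS sEV values lay above all saline values for 1279 genes (11.2%) and below them for 1523 (13.4%), and with 5 libraries for 1743 (15.3%) and 2093 (18.4%).

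Leading genes were picked by the smallest p-values under some conditions, and genes that do not meet them can have smaller ones. The conditions were at least 5 coding TPM in the higher group, no overlap between groups and no predicted or clone name. In the 6-library fit a protease inhibitor, a chemokine and a gene for a mitochondrial protein led. Serpina3g, a serine protease inhibitor known from activated lymphocytes and macrophages (chromosome 12, 104236245 to 104241939, GRCm38), stood at 18.7, 20.8 and 21.5 coding TPM in saline replicates 1, 2 and 3 and at 57.1, 70.1 and 62.9 in TIS sEV replicates 1, 2 and 3. Each TIS sEV library was above each saline library, and the libraries of a group lay close together. The difference was 1.59 (SE 0.18) with 6 libraries (limma adjusted p = 0.118) and 1.52 (SE 0.17) with 5 (adjusted p = 0.241). Its close relatives in the Serpina3 cluster can share reads, so the split between them is uncertain.

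Ccl5, a chemokine that draws T cells and monocytes (chromosome 11, 83525778 to 83530518), stood at 28.2, 33.4 and 32.3 with saline and 84.1, 145 and 133 with TIS sEV. Every TIS sEV library lay above every saline library, and TIS sEV replicates 2 and 3 were the highest. The difference was 1.88 (SE 0.24, limma adjusted p = 0.159) with 6 libraries and 1.73 (SE 0.23) with 5 (adjusted p = 0.311). Without TIS sEV replicate 1 limma gave Ccl5 an adjusted p of 0.0459.

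Chchd10, whose product sits between the mitochondrial membranes (chromosome 10, 75933130 to 75937747), had the second largest difference among the 15 leading higher genes. It stood at 10.4, 6.65 and 8.29 with saline and 61.2, 286 and 108 with TIS sEV. All TIS sEV libraries were far above saline, and replicate 2 was the highest. The difference was 3.75 (SE 0.51, limma adjusted p = 0.181) and, without replicate 2, 3.15 (SE 0.30, adjusted p = 0.212).

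The sequences before the start sites of Serpina3g and Chchd10 show what lies upstream of leading genes. RefSeq promoters of the build GRCm38.p6 were read for the 250 bases before the start, and Ccl5 had no entry. They were searched on both strands for 4 motifs, each a pair of short blocks with free bases between them. These were TTC and GAA 3 bases apart, the palindrome bound by STAT factors, GGG and TCC 4 bases apart, a loose form of the NF-kB site, GAAA and GAAA 2 bases apart, the core bound by interferon regulatory factors, and GCGCA and GCGC 1 base apart, the site of nuclear respiratory factor 1. Capitals mark matches. The first sequence is on chromosome 12, 104235897 to 104236146, plus strand, and the second on chromosome 10, 75932880 to 75933129, plus strand.
Serpina3g: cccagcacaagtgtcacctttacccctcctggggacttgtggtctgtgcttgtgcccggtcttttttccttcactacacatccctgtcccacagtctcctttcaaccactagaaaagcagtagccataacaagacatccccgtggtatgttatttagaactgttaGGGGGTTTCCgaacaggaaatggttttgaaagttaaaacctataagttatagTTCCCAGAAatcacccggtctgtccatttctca
Chchd10: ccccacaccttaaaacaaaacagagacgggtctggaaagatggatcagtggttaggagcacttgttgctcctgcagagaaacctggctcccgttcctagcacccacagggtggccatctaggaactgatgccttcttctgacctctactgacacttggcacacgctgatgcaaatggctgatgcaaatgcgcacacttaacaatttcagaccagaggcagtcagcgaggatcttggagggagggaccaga
The Serpina3g window held 1 STAT palindrome, whose first base is 33 bases before the start, and 1 NF-kB match at 85 bases. The Chchd10 window held none of the 4. Among the 250-base windows of all 27025 RefSeq genes, 7.18% held the STAT palindrome, 16.3% the NF-kB form, 3.04% the interferon core and 3.86% the site of nuclear respiratory factor 1. The 2 matches in Serpina3g do not overlap. A match is a string of letters and not evidence that a factor binds there.

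The other leading higher genes covered lipid binding, growth signals, antigen receptors and detoxification. Fabp5, a fatty acid binding protein, stood at 80.8, 137 and 87.6 with saline and 333, 440.3 and 278 with TIS sEV, a difference of 1.79 (SE 0.27, limma adjusted p = 0.254). Igf1, a growth factor made by macrophages and fibroblasts, stood at 2.25, 1.74 and 0.787 against 6.08, 28.4 and 16.2, a difference of 2.61 (SE 0.51, adjusted p = 0.304). Its TIS sEV libraries ranged widely and replicate 2 was the highest. Socs2, an inhibitor of cytokine and growth hormone signals, stood at 4.25, 3.38 and 3.96 against 10.1, 20.2 and 10.5. Cbr3, a carbonyl reductase, stood at 3.12, 1.59 and 1.27 against 8.2, 34 and 13, and Car2, a carbonic anhydrase, at 1.27, 1.62 and 0.743 against 4.2, 8.07 and 4.83. The groups did not overlap for either gene. Snx21, a sorting nexin, had a small spread, with 6.06, 5.78 and 6.38 against 13.3, 11.9 and 12.8, a difference of 0.95 (SE 0.18). Trbc2 and Ighg1 are given below with lymphocytes, and the other leading genes were Pgpep1l, Setd4, Dmrtb1 and Msx3, with differences of 2.34, 1.41, 2.35 and 2.58. Dmrtb1 was under 1 coding TPM in every saline library.

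With 5 libraries 6 further genes entered the leading 15. Il6, a cytokine of the senescence-associated secretion, stood at 1.4, 1.23 and 1.01 with saline and 4.76, 1.89 and 4.76 with TIS sEV. Its difference was 1.05 (SE 0.31) with 6 libraries and 1.41 (SE 0.20) with 5 (limma adjusted p = 0.311). Mcpt2, a mast cell protease, stood at 4.18, 5.03 and 0.419 against 61.5, 4.11 and 62.7, and Itgb7, an integrin chain of lymphocytes and mast cells, at 5.02, 9.3 and 7.16 against 22.1, 9.36 and 23.2. In each of these, TIS sEV replicates 1 and 3 were high and replicate 2 lay within or just above the saline range. C1qtnf12, a secreted relative of complement C1q, showed the same order, with 4.12, 4.5 and 3.51 against 11.2, 4.07 and 10.6. Fahd2a and Gfra4 completed the set, with differences of 1.63 and 2.10 with 5 libraries.

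Among the genes that were lower with TIS sEV stood regulators of transcription, RNA tailing and cell death. Nfe2l2, the transcription factor NRF2 of the oxidative stress response, stood at 62.3, 66.1 and 63.4 with saline and 41.1, 32.5 and 34 with TIS sEV, a difference of -0.82 (SE 0.18, limma adjusted p = 0.304). The saline libraries lay within a narrow band and all TIS sEV libraries lay below it. Klf10, an early response gene of TGF-beta, stood at 36.9, 39.4 and 31.7 against 20.9, 13 and 17.3, a difference of -1.05 (SE 0.22, adjusted p = 0.304). Bcl2l11, the death-promoting BCL2 relative BIM, stood at 24.4, 22.9 and 21.1 against 12, 11.1 and 13.8, a difference of -0.84 (SE 0.19, adjusted p = 0.304). Its groups lay apart with little spread.

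Pcmtd2 had the smallest p of the leading lower genes, with 7.06, 9.02 and 10.6 against 3.48, 1.64 and 2.74 and a difference of -1.47 (SE 0.27, limma adjusted p = 0.304). Tut4, an enzyme that adds uridines to RNA, stood at 22.3, 19.6 and 31.6 against 10.6, 8.52 and 11.5. Npnt, the matrix ligand nephronectin, stood at 28.1, 56.8 and 65.7 against 16.8, 11.6 and 17.1. TIS sEV replicate 2 was the lowest for each of these 3 genes. Mtss1, an actin-binding protein of the cell edge, stood at 38.9, 36.1 and 33.1 against 20.1, 21.4 and 17, and Plet1, a surface protein of epithelial progenitors, at 51.5, 87.5 and 70.1 against 30.9, 18.9 and 32.1. The other genes of the leading 15 were Tsc22d2, Nbeal2, Plac9a, Vwa5a, Yipf4, Sipa1l3 and Zfp608, with differences from -2.09 for Plac9a, listed at 0 in TIS sEV replicate 2, to -0.82 for Vwa5a. The 5-library fit added Tcp11l2, Hnrnpr, Nrip1, Trps1, Pdlim5, Pdcl and Jrkl, with differences in that fit from -1.12 to -0.80. Hnrnpr, an RNA-binding protein of splicing, stood at 31.3, 34.1 and 32 against 17.3, 30.2 and 13.2, close to saline in replicate 2.

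**Figure D1:**
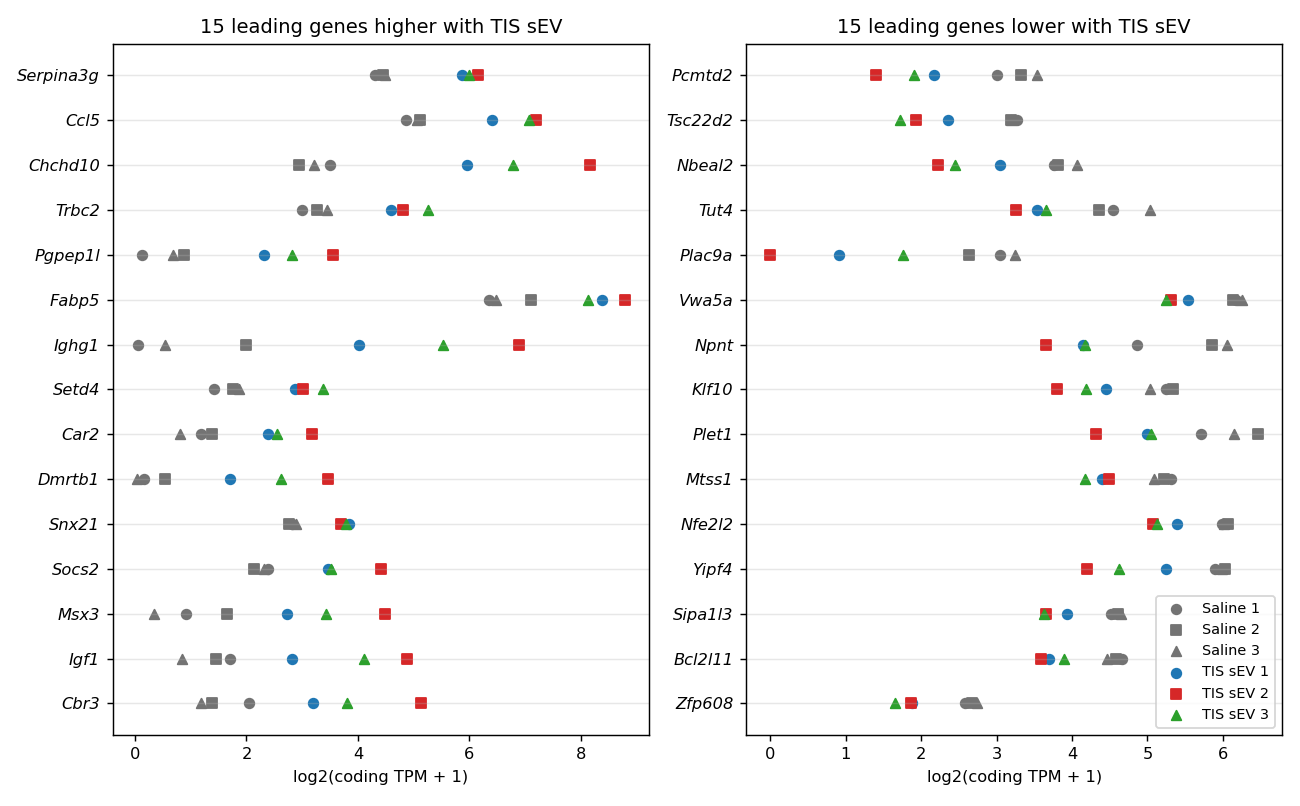
Values of the 15 leading genes in each direction in the 6-library fit, as log2(coding TPM + 1) on the x axis, with 1 row per gene and 1 point per library (grey saline, colours TIS sEV). By the rule that chose them the groups do not overlap in any row. TIS sEV replicate 2 (red squares) is the highest point for every leading higher gene except Trbc2, Setd4 and Snx21.

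Several lymphocyte genes were higher with TIS sEV than with saline, and the differences were larger for antibody genes than for T cell genes. Igkc, the constant part of the kappa light chain (chromosome 6, 70726435 to 70726966), stood at 3.1, 8.19 and 1.77 coding TPM with saline and 33.7, 568 and 110.1 with TIS sEV. Ighg1, an IgG heavy chain, stood at 0.0364, 2.96 and 0.453 against 15.3, 118 and 44.9, with a difference of 4.62 (SE 0.76, limma adjusted p = 0.304) and, without TIS sEV replicate 2, 3.98 (SE 0.67, adjusted p = 0.324). Jchain, which joins secreted IgM and IgA, stood at 0.348, 0.483 and 0.101 against 2.72, 26.8 and 4.28. In all of these the lowest TIS sEV library was above the highest saline library, and replicate 2 stood far above the others. Of 19 listed B and plasma cell genes only 5 were high enough to test, and all 5 lay higher without overlap, with a median difference of 2.87 and, with 5 libraries, 1.83. A gene passes the filter more easily when its TIS sEV values are high, so this count says nothing about the untested members. Ms4a1, a surface protein of B cells, was at or near 0 in all 6 libraries, at 0.0228, 0.0111 and 0 against 0.023, 0 and 0.0158.

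T cell genes differed less. Trbc2, a constant region of the T cell receptor beta chain, stood at 6.94, 8.65 and 9.85 against 23.2, 26.9 and 37.3, a difference of 1.65 (SE 0.24, limma adjusted p = 0.253). Its near-identical neighbour Trbc1 stood at 6.34, 7.52 and 7.17 against 9.65, 24.4 and 10.9, and the split of reads between these neighbours is uncertain. Lck, the kinase at the receptor, stood at 4.56, 4.46 and 6.05 against 7.22, 11 and 11.5. Zap70, the next kinase, stood at 1.32, 1.26 and 1.67 against 2.26, 4.75 and 4.38, and the adaptor Lat at 3.55, 2.69 and 4.01 against 5.95, 9.58 and 10.4. All of these were separate between the groups. Of 13 tested T cell genes 6 were higher without overlap and 0 lower, and with 5 libraries 10 were, with medians of 0.57 and 0.78. Among all tested genes 11.2% and 15.3% were higher without overlap. Cd3g, a receptor subunit, stood at 10.4, 9.64 and 10.6 against 12.7, 9.52 and 27, so that replicate 2 lay below the saline libraries. Ptprc, the surface protein CD45 of all white blood cells, lay the other way, with 4.69, 7.03 and 4.93 against 4.33, 2.45 and 4.15.

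Genes of cytotoxic cells did not separate the groups as a list. Nkg7, a granule protein of natural killer and cytotoxic T cells, stood at 13.4, 11.1 and 12.5 against 20, 15.3 and 39. Gzmb, a granule protease, stood at 12.5, 17.8 and 13.6 against 28.1, 2.68 and 15.3, and Gzmc at 16.1, 21.9 and 17.3 against 46.9, 2.54 and 5.98. Replicate 2 was the lowest library for both granzymes. Of 10 tested genes 1 was higher without overlap with 6 libraries and 3 with 5, and the median was 0.029 and 0.51. These shares, 10% and 30%, compare with 11.2% and 15.3% of all tested genes.

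Mast cell genes were high in TIS sEV replicates 1 and 3. Mcpt4, a chymase of connective tissue mast cells, stood at 2.03, 4.54 and 0.662 against 17.3, 7.26 and 20.4, and Cma1, another chymase, at 1.53, 7.0 and 0.206 against 19.2, 8.98 and 20.5. Tpsb2, a tryptase, stood at 4.69, 14.5 and 0.58 against 39.7, 14.7 and 54.8. For these 3 genes replicate 2 was the lowest TIS sEV library and lay above saline replicate 2, the highest saline library, by a small margin for Tpsb2. Saline replicate 3 was the lowest library for all 3. Of 7 tested genes 3 were higher without overlap, with a median of 2.28, and with 5 libraries 5, with a median of 2.74. The shares over all tested genes were 11.2% and 15.3%. Tpsb2 and its relative Tpsab1 are similar enough to share reads.

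Some macrophage genes of the resident, scavenging type were higher without overlap, and most overlapped. Ccl8, a chemokine of such macrophages, stood at 332, 1424 and 261 with saline and 2494, 8530.1 and 3594 with TIS sEV, a difference of 3.09 (SE 0.70). Cbr2, a carbonyl reductase, stood at 45.9, 61.1 and 25.9 against 99.8, 826 and 303, and Cd163, the haemoglobin scavenger receptor, at 7.53, 19.6 and 2.99 against 26.2, 156 and 28. Pf4, a platelet and macrophage chemokine, stood at 89.8, 77.4 and 42.4 against 195, 189 and 105. These 4 genes were separate between the groups, with replicate 2 the highest for all but Pf4, and saline replicate 2 the highest saline library for all but Pf4. Selenop, a selenium carrier, stood at 50.7, 102 and 26.8 against 60.3, 704 and 146 and overlapped. Of 14 tested genes 4 were higher and 0 lower without overlap in either fit, and the medians were 1.22 and 0.87. The higher share was 28.6% in each fit, against 11.2% of all tested genes with 6 libraries and 15.3% with 5.

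General monocyte and macrophage genes overlapped. C1qa, a complement subunit, stood at 285, 579 and 455 against 268, 1076 and 1038, and Arg1, arginase, at 540.4, 912 and 364 against 775, 2418 and 695. TIS sEV replicate 2 was the highest library for both. With 6 libraries none of 22 tested genes separated the groups, and their median was 0.45 with 6 libraries and 0.18 with 5.

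Dendritic cell genes were higher without overlap for 3 of 8 tested members in each fit, where 11.2% and 15.3% of all tested genes were. Irf8, a transcription factor of dendritic cells and monocytes, stood at 22.5, 22.8 and 23.9 against 31, 33.5 and 33.9, with little spread in either group. Batf3, a factor of cross-presenting dendritic cells, stood at 9.27, 6.28 and 7.29 against 10.6, 21.6 and 23.5, and Ccl17, a chemokine, at 3.17, 2.2 and 2.24 against 5.51, 13.1 and 6.31. The list median was 0.57 and 0.43. Neutrophil genes showed no shared direction. S100a8, a calcium-binding protein of neutrophils, stood at 2836, 636 and 346 against 648, 1454 and 776, with saline replicate 1 the highest library. Of 16 tested genes 1 was separate, Trem1, at 6.29, 5.54 and 4.83 against 3.91, 4.22 and 4.8. The neutrophil median of 0.080 changed sign relative to the median gene under quantile normalization and was -0.12 with 5 libraries.

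**Figure D2:**
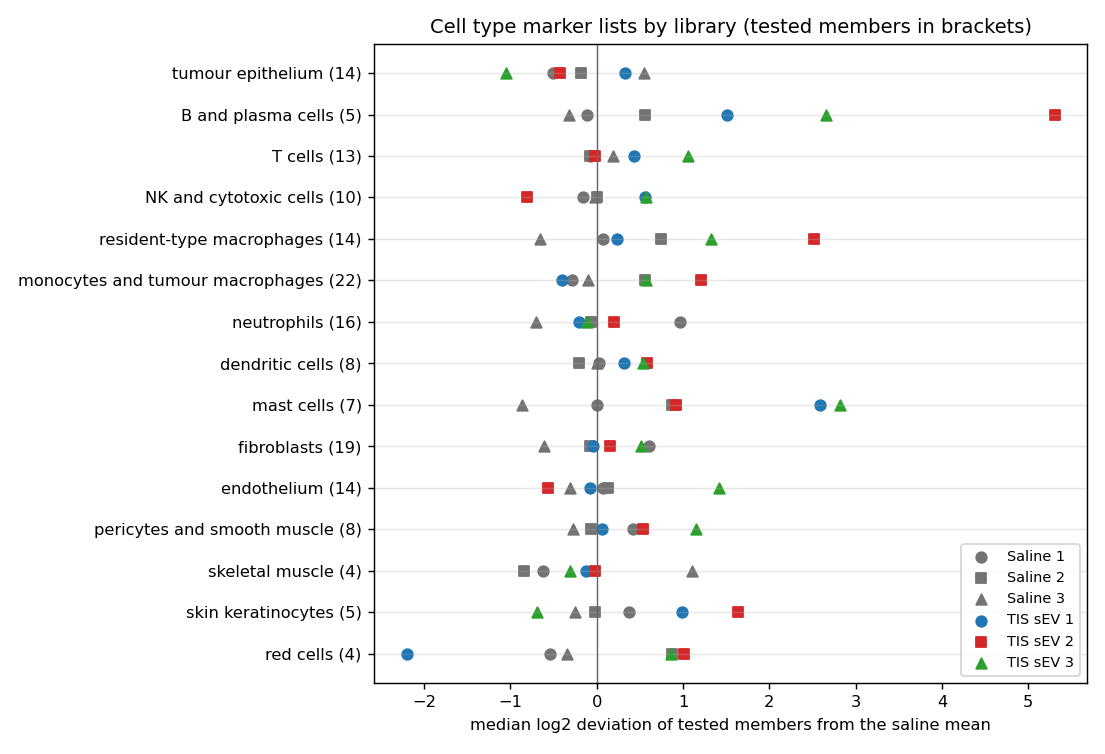
Median log2 deviation of the tested members of each cell type list from the mean of the saline libraries (x axis), with 1 row per list and 1 point per library (grey saline, colours TIS sEV). All TIS sEV points of the B and plasma cell, mast cell and dendritic cell lists lie above all saline points, whereas epithelial and neutrophil points mix. The B and plasma cell row rests on 5 of 19 listed genes, which passed the filter more easily by being high with TIS sEV. In the mast cell row the lowest TIS sEV point is 0.92 and the highest saline point 0.87.

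CC chemokines, which draw monocytes and lymphocytes, were higher without overlap for 4 of 13 tested members with 6 libraries and 6 with 5. Beside Ccl5, Ccl8 and Ccl17 these included Ccl12, a chemokine that draws monocytes, at 54.3, 77.8 and 72.5 with saline and 94.2, 212 and 242 with TIS sEV. Ccl6, made by myeloid cells, stood at 401, 392 and 198 against 215, 1349 and 385 and overlapped. No member was lower without overlap, and the median was 0.73 with 6 libraries and 0.99 with 5. The shares of all tested genes higher without overlap were 11.2% and 15.3%. All 4 separate members, and 5 of the 6 with 5 libraries, were among the 7 with a longest transcript of up to 1000 bases. At that length 29.2% and 32.0% of all tested genes were higher without overlap.

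Antigen presentation genes depended on TIS sEV replicate 2. H2-K1, a classical class I molecule, stood at 4162, 3301 and 5139 against 5319, 1262 and 6012, and H2-Aa, a class II chain, at 625, 319 and 1065 against 1019.8, 359 and 1442. Replicate 2 was the lowest library for H2-K1 and the second lowest for H2-Aa. The class I median over 16 genes was -0.24 with 6 libraries and 0.39 with 5, where 6 members were higher without overlap. The class II median over 9 genes was 0.44 and 1.02, with 0 and 3 separate members. With 5 libraries 37.5% of class I and 33.3% of class II genes were higher without overlap, against 15.3% of all tested genes. With 6 libraries these shares were 12.5% and 0%, against 11.2%. The immunoproteasome subunits Psmb9 and Psmb10, which cut antigen peptides, were separate in both fits. Psmb9 stood at 309, 156 and 346 against 496, 481 and 667, and Psmb10 at 580.3, 365 and 682 against 806, 1389.9 and 1652.

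Interferon-stimulated genes had no shared direction. Zbp1, a sensor of nucleic acids, stood at 76.5, 46.3 and 95.3 against 141, 120.0 and 124 and was the only member higher without overlap with 6 libraries. Ifit3, an antiviral effector, stood at 11.2, 11.9 and 22.2 against 10.4, 7.41 and 8.64 and was the only member lower with 6 libraries. Isg15, a ubiquitin-like modifier, stood at 174, 139 and 194 against 159, 107 and 192. The median over 28 genes was -0.12 with 6 libraries and 0.032 with 5, where 5 members were higher and 2 lower without overlap. Among checkpoint genes, Pdcd1lg2, the ligand PD-L2, stood at 2.25, 4.31 and 4.44 against 8.02, 10.1 and 8.79, and Nt5e, the adenosine-producing enzyme CD73, at 170.1, 141 and 233 against 136, 31.5 and 96.3. With 6 libraries they were separate in opposite directions, and the other 11 tested members overlapped. With 5 libraries 2 members were higher and 1 lower without overlap. Over all tested genes 15.3% were higher and 18.4% lower without overlap with 5 libraries, and 11.2% and 13.4% with 6. Cd274, the ligand PD-L1, stood at 11.4, 7.3 and 8.52 against 17.4, 7.17 and 9.33.

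Genes of the senescence-associated secretion separated the groups for more members once TIS sEV replicate 2 was left out. Beside Il6, Timp1, a protease inhibitor, stood at 597, 338 and 271 against 636, 373 and 972, and Mmp3, the protease stromelysin, at 129.6, 203 and 88.5 against 371, 43.9 and 232. Replicates 1 and 3 were above all saline libraries for both, and replicate 2 was not. Of 26 tested members 1 was higher without overlap with 6 libraries and 9 with 5, with medians of 0.25 and 0.52. None was lower without overlap in either fit. Over all tested genes the share higher without overlap also went up, from 11.2% to 15.3%. Complement genes had 0 and 4 of 11 members higher without overlap with 6 and 5 libraries and medians of 0.44 and 0.80. C3, the central complement protein, stood at 130.3, 95.9 and 59.8 against 185, 69.6 and 136.

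Some targets of p53 were higher without overlap and some lower. Cdkn1a, the inhibitor p21 of cyclin-dependent kinases (chromosome 17, 29090976 to 29100727), stood at 33.6, 27.7 and 31.3 with saline and 52, 57.9 and 37.8 with TIS sEV, a difference of 0.64 (SE 0.22). Phlda3, an inhibitor of AKT, stood at 26.9, 23.1 and 22.5 against 28.7, 41.7 and 44.5, and the death effector Bax at 125, 131 and 127 against 139, 174 and 188. Trp53inp1, a stress protein, stood at 2.12, 2.18 and 1.89 against 1.29, 1.48 and 1.04, and Bbc3, the death promoter PUMA, at 8.48, 10.1 and 7.59 against 6.35, 7.26 and 5.87. With 6 libraries Cdkn1a, Phlda3, Bax and the kinase Plk2 were higher without overlap, Trp53inp1 and Bbc3 lower, and the other 10 tested members overlapped. With 5 libraries 5 members were higher and 3 lower without overlap. The lower shares, 12.5% and 18.75%, were near the 13.4% and 18.4% of all tested genes. The higher shares were 25% and 31.25%, against 11.2% and 15.3%. The list median was 0.062 with 6 libraries and 0.22 with 5.

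Cell cycle genes mostly overlapped. Mki67, the proliferation antigen, stood at 9.51, 19.5 and 11.5 against 12.2, 5.21 and 8.1, and Birc5, the chromosome passenger survivin, at 69.6, 80.3 and 80.7 against 117, 106 and 105. Birc5 was the only one of 20 mitotic genes that was separate with 6 libraries, and with 5 libraries 2 were higher without overlap. The mitotic median was -0.35 with 6 libraries and -0.17 with 5. Of 20 S phase genes Cdc45, a part of the replicative helicase, was higher (21.8, 29.6 and 31.6 against 37.5, 34.2 and 46.6) and Slbp, which binds histone mRNA, lower (47.8, 47.2 and 51.1 against 42.9, 43.2 and 37.1). With 5 libraries 3 S phase genes were higher and 1 lower without overlap. The S phase median was 0.0019 with 6 libraries and 0.027 with 5, with the other sign relative to the median gene in deposited TPM. Tubulin genes, whose protein nocodazole binds, were higher without overlap for 5 of 11 tested members in each fit, a list that includes Stmn1 and Tubg1. With 5 libraries 1 member was lower. The shares of all tested genes higher without overlap were 11.2% and 15.3%. Tuba1b stood at 630.0, 657 and 706 against 729, 1107 and 833, and Tubb5 at 456, 435 and 368 against 495, 567 and 479.9, with small gaps between the groups. Relative to the median gene, the difference of Tubb5 was -0.11 under quantile normalization, the other sign from the values above. The list median was 0.40 and 0.23.

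A large share of the nuclear genes of the respiratory chain were higher with TIS sEV. The chain passes electrons from NADH and succinate to oxygen in the inner mitochondrial membrane, and its nuclear genes are spread over many chromosomes. Of 59 genes, all tested, 38 were higher without overlap and 0 lower, 56 had a difference above 0, and the median was 0.56. With 5 libraries 37 were higher and 1 lower without overlap, with a median of 0.44. Over all tested genes 11.2% were higher without overlap with 6 libraries and 15.3% with 5. These genes are short, and short genes as a whole were more often higher. Among all tested genes with a longest transcript of up to 1000 bases 29.2% were higher without overlap with 6 libraries and 32.0% with 5, against 20 of the 28 members of that length in each fit. Among those of 1001 to 2000 bases 21.5% and 27.0% were, against 12 and 11 of 20 members.

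By complex, the median difference was 0.61 for the 36 genes of complex I, 0.38 for the 4 of complex II, 0.38 for the 9 of complex III and 0.63 for the 10 of complex IV. With 5 libraries these medians were 0.50, 0.20, 0.26 and 0.52. Ndufb10, a complex I subunit, stood at 184, 155 and 157 against 225, 479.8 and 368, the largest difference of the list at 1.04 (SE 0.29). Cox4i1, a complex IV subunit, stood at 1096, 1054 and 1089 against 1182, 1724 and 1922. TIS sEV replicate 1 lay nearest to saline for both genes and replicates 2 and 3 were the highest. Uqcrc2, a core protein of complex III, had the lowest difference, with 75, 86.3 and 60.2 against 59.8, 70.9 and 45.6. By library, the median deviation of the 59 genes from the saline mean was 0.23, 0.90 and 0.64 in TIS sEV replicates 1, 2 and 3, and 0.064, -0.065 and -0.032 in the saline replicates.

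**Figure D3:**
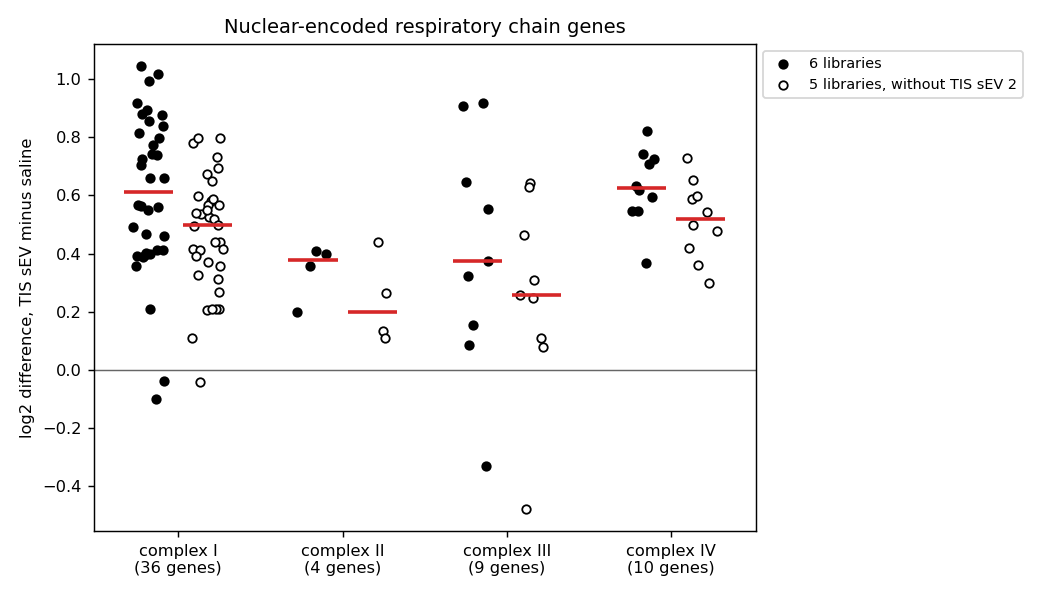
Log2 difference (TIS sEV minus saline, y axis) of each nuclear-encoded respiratory chain gene, by complex (x axis, horizontally jittered), with 6 libraries (filled) and with 5 (open). Red bars are medians, which lie above 0 for every complex in both fits, and Uqcrc2 is the lowest point of complex III.

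Promoters of the respiratory chain were searched for the same site of nuclear respiratory factor 1, GCGCA and GCGC 1 base apart, on both strands. Of 48 members with a RefSeq promoter 9 (18.8%) held it in the 250 bases before the start, against 3.86% of all promoters. Such sites are known from respiratory genes, and this share does not depend on the libraries. The site was not particular to this list. Proteasome genes held it in 6 of 25 promoters (24%), and cytosolic ribosomal protein genes in 1 of 57 (1.75%). The windows of 4 of the 9 respiratory chain genes are printed with the site in capitals to show its letters. They had the highest mean coding TPM among those of the 9 whose groups did not overlap. The windows lie at chromosome 5, 115349101 to 115349130, minus strand (Cox6a1), chromosome 17, 56717692 to 56717721, plus strand (Ndufa11), chromosome 4, 123718265 to 123718294, minus strand (Ndufs5) and chromosome 13, 73328483 to 73328512, minus strand (Ndufs6) in GRCm38.p6.
Cox6a1: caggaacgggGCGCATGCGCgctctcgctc
Ndufa11: cctgcactgcGCGCATGCGCgcacgccttg
Ndufs5: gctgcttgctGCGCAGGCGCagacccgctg
Ndufs6: ccgccgactgctgtGCGCCTGCGCcggcac
Cox6a1 stood at 483, 494 and 579.5 with saline and 732, 675 and 1011 with TIS sEV, and Ndufs6 at 149.7, 118 and 123 against 194, 340.0 and 264. The site sits 162 bases before the start in Cox6a1 and 16 bases before it in Ndufs6.

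Glycolysis genes were mostly below their saline values by small amounts. Ldha, lactate dehydrogenase, stood at 1802, 1811 and 1587 against 1243, 1008 and 933, a difference of -0.72 (SE 0.22), and Pfkl, a phosphofructokinase, at 173, 184 and 174 against 137, 139 and 131. Pkm, pyruvate kinase, was separate by a small gap, with 1774, 1717 and 1707 against 1641, 1517 and 1305. Of 24 tested genes 3 were lower and 0 higher without overlap with 6 libraries, and 2 had a difference above 0. With 5 libraries 4 were lower and 0 higher. The lower shares, 12.5% and 16.7%, were near the 13.4% and 18.4% of all tested genes. The median was -0.26 with 6 libraries and -0.26 with 5. Gapdh stood at 4556, 3131 and 3134 against 4211, 5979.6 and 4241 and overlapped.

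Fatty acid oxidation genes were mixed, with 3 of 14 higher without overlap, 1 lower and a median of 0.30. With 5 libraries 4 were higher and 1 lower, and the median was 0.25. The higher shares, 21.4% and 28.6%, compare with 11.2% and 15.3% of all tested genes. The lower share, 7.14% in each fit, compares with 13.4% and 18.4%. Acadm, a dehydrogenase of medium chains, was the lower member, with 53.9, 60.5 and 60.4 against 38.9, 53.4 and 36. Cholesterol synthesis genes all overlapped with 6 libraries, and 1 of 19 was higher without overlap with 5. Their median of -0.48 became 0.059 without TIS sEV replicate 2. Fdps, an enzyme of isoprenoid synthesis, stood at 76.6, 174 and 235 against 386, 96.6 and 145. Targets of NRF2 were higher without overlap for 3 of 15 members with 6 libraries and 4 with 5. Their medians were 0.27 and 0.28, while Nfe2l2 itself was lower. All 3 were among the 6 members with a longest transcript of 1001 to 2000 bases. At that length 21.5% of all tested genes were higher without overlap with 6 libraries. Gstm1, a glutathione transferase, stood at 6.77, 3.41 and 3.84 against 13.4, 38.8 and 18.9, and Txn1, thioredoxin, at 701, 581 and 666 against 749, 1078 and 885.

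Proteasome genes, which encode the protease that degrades ubiquitin-tagged proteins, were higher without overlap for 14 of 31 members in each fit, where 11.2% and 15.3% of all tested genes were. Psmb3, a core subunit, stood at 298, 297 and 324 against 449, 625 and 553, and Psmb5, the catalytic subunit of the constitutive core, at 172, 174 and 194 against 240.2, 362 and 365. Psmd2, a base subunit of the regulatory cap, stood at 235, 163 and 202 against 301, 338 and 613. The median was 0.38 and 0.29, and no member was lower without overlap. Cytosolic ribosomal proteins had a median of 0.30 over 78 genes, of which 4 were higher without overlap. With 5 libraries the median was 0.12, and 4 were higher and 2 lower without overlap. Rpl14 stood at 1855, 1271 and 1601 against 1920.5, 3664 and 2832.

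Stress response lists held few separate genes. Hspa1a, an inducible chaperone, stood at 2.84, 2.91 and 2.11 against 1.37, 0.514 and 1.31, and Bag3, its co-chaperone, at 39.5, 41.2 and 35.7 against 31, 25.4 and 31.4. They were the 2 lower members of 11 heat shock genes (median -0.10, and -0.12 with 5 libraries). Among all tested genes 13.4% were lower without overlap with 6 libraries and 18.4% with 5. In the unfolded protein response Sdf2l1, an endoplasmic reticulum protein, was higher (24.4, 13.4 and 25.2 against 36, 32.7 and 37.4) and Dnajb9, a chaperone partner of BiP, lower (22.2, 19 and 13 against 9.69, 5.12 and 9.96). Hsp90b1, the chaperone GRP94, was also lower, with 574, 586 and 562 against 481, 168 and 513. The median over 19 genes was -0.19 with 6 libraries and -0.10 with 5. With 6 libraries immediate early genes had 1 separate member in each direction. Zfp36, which destabilises cytokine mRNA, was higher (26.6, 20.9 and 15.1 against 28.5, 52.3 and 29.3). Egr2, a transcription factor, was lower (11.9, 11.9 and 10.5 against 6.16, 4.22 and 10). With 5 libraries 1 member was higher and 2 lower without overlap. The immediate early median was 0.26 and, with 5 libraries, 0.13. Lamp2 was the only separate lysosome gene, at 119, 103 and 96 against 84.1, 46.5 and 67.2 (list median -0.13 with 6 libraries and 0.14 with 5).

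Few genes of TGF-beta, Wnt and Notch signalling separated the groups, and the shares for TGF-beta and Notch were near those of all tested genes. Over all tested genes 13.4% were lower without overlap with 6 libraries and 18.4% with 5, against 2 of 11 TGF-beta genes and 1 of 7 Notch genes in each fit. Skil, a feedback inhibitor of TGF-beta signals, stood at 16.2, 10.7 and 13.7 against 6.58, 7.15 and 6.93, a difference of -0.86 (SE 0.21) with 6 libraries and -0.90 (SE 0.22) with 5. Thbs1, thrombospondin, stood at 24.8, 17 and 16.1 against 12.5, 1.83 and 13.6. These were the 2 separate members of 11 in either fit, and the median was -0.43 and -0.10. Wls, which carries Wnt proteins to the surface, stood at 86.8, 153 and 134 against 63.5, 17.8 and 56.7, and Znrf3, which removes Wnt receptors, at 2.45, 2.96 and 2.47 against 1.56, 0.615 and 1.79. Both were lower without overlap in each fit. The other 5 Wnt genes overlapped with 6 libraries, and with 5 the transcription factor Myc and the Wnt acyltransferase Porcn were higher without overlap. The Wnt median of 0.026 (0.081 with 5 libraries) had the other sign relative to the median gene in deposited TPM and under quantile normalization. Notch2, a receptor, was the separate member of 7 Notch genes, at 9.03, 11 and 9.36 against 6.23, 1.21 and 6.74, and their median was -0.41 and -0.025.

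Matrix genes were low in TIS sEV replicate 2. Fn1, fibronectin, stood at 1019.6, 1127 and 1332 against 699, 131 and 982, with all TIS sEV libraries below saline, and Col18a1, a basement membrane collagen, at 48.9, 98.8 and 95.8 against 38.1, 4.79 and 39.6. Lamb1, a laminin chain, stood at 103, 133 and 144 against 88.4, 19.7 and 88.6. These 3 genes were separate with and without replicate 2. Lama5, another laminin chain, stood at 417, 509.6 and 675 against 438, 81.3 and 651 and overlapped. The basement membrane median over 15 genes was -0.87 with 6 libraries and -0.014 with 5, and the integrin median over 10 genes -0.60 and 0.051. Of the integrin genes 0 were higher and 1 lower without overlap with 6 libraries, and 4 and 1 with 5. The lower share, 10% in each fit, compares with 13.4% and 18.4% of all tested genes. The higher shares were 0% and 40%, against 11.2% and 15.3%. Itgb1, the common beta chain, stood at 176, 193 and 195 against 170.1, 44.7 and 128.

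Fibroblast genes had a median of 0.19 over 19 genes with none separate, and with 5 libraries of 0.23 with 2 higher without overlap. Matrix proteases and their inhibitors had a median of 0.24 over 15 genes with none separate, and with 5 libraries of 0.50 with 5 higher without overlap. Plat, a plasminogen activator, was among those 5, at 7.89, 8.58 and 12.6 against 18.3, 3.32 and 16.7. With 5 libraries 33.3% of the proteases and inhibitors and 10.5% of fibroblast genes were higher without overlap, against 15.3% of all tested genes. Genes of the mesenchymal transition had a median of 0.049 (0.019 with 5 libraries) that had the other sign relative to the median gene in deposited TPM and under quantile normalization. In that list Twist2, a transcription factor, stood at 5.57, 5.13 and 1.79 against 9.86, 8.35 and 8.36 and Snai1, a repressor of cadherin, at 30.8, 20.4 and 31.2 against 20.2, 10.1 and 18.4, on opposite sides. Bone matrix phosphoproteins were lower in part of the libraries. Dmp1, a mineralisation protein, stood at 32.4, 21.5 and 106 against 7.94, 7.54 and 14.1, a difference of -2.04 (SE 0.56). Spp1, osteopontin, stood at 5821, 5712 and 5389.5 against 2327, 320.4 and 5845, so that replicate 3 was as high as saline.

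Vesicle-associated genes were lower without overlap for 5 of 13 members with 6 libraries and 6 with 5, where 13.4% and 18.4% of all tested genes were. Cd9, a tetraspanin used as a vesicle marker, stood at 672, 688 and 856 against 449, 116 and 431, a difference of -1.38 (SE 0.50) with 6 libraries and -0.74 (SE 0.19) with 5. Pdcd6ip, the sorting protein ALIX, stood at 61.8, 59.9 and 65.2 against 50.5, 47.5 and 39. Cd63, another tetraspanin, stood at 1652, 1989.7 and 1394 against 1704, 1069.5 and 2174 and overlapped. No member was higher without overlap, and the median was -0.17 and -0.21.

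**Figure D4:**
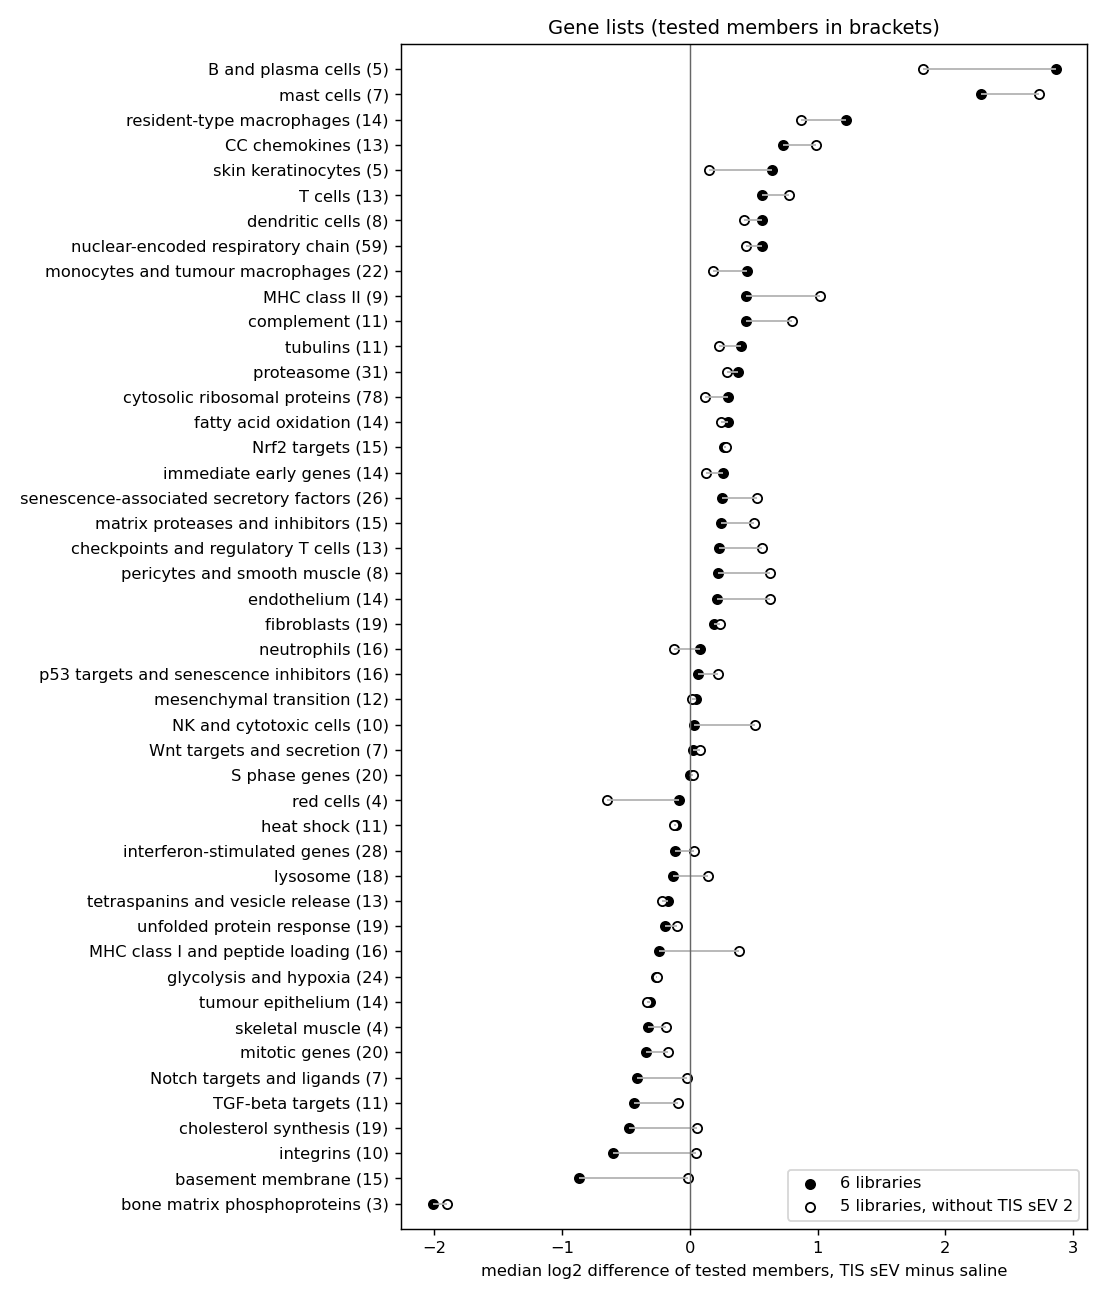
Median log2 difference (TIS sEV minus saline, x axis) of the tested members of each list with at least 3 of them, with 6 libraries (filled) and with 5 (open), lists ordered by the 6-library value. The medians of basement membrane, integrins and cholesterol synthesis move to near 0 without TIS sEV replicate 2. That of B and plasma cells rests on 5 of 19 listed genes, which passed the filter on low values more easily by being high with TIS sEV.

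Some libraries carried markers of adjacent tissue. The adipocyte genes Adipoq and Cfd stood at 12.1 and 182 in TIS sEV replicate 2, and at no more than 0.11 and 2.33 in the other libraries. The summed level of the adipocyte list ranged from 55.7 to 58.5 with saline and was 44.8, 416 and 101 with TIS sEV. The skeletal muscle genes Ckm and Acta1 were highest in saline replicate 3, where Acta1 stood at 25.2 and Ckm at 4.18, and the summed muscle list ran 67.8, 29.4 and 166 with saline and 59.3, 31 and 44 with TIS sEV. Endothelial genes were highest in TIS sEV replicate 3, with sums of 152, 148 and 129 and 147, 108 and 415, and their median was 0.21 with 6 libraries and 0.63 with 5. Pericyte and smooth muscle genes had a median of 0.22 with no separate member, and with 5 libraries of 0.63 with 1 member separate in each direction. The median of 5 skin keratinocyte genes was 0.65 and, with 5 libraries, 0.15, with none separate. Haemoglobin and other red cell genes, 4 tested, had a median of -0.083 that depended on single libraries, with 0.93 when TIS sEV replicate 1 was left out and -0.65 with the 5 libraries. Mbp, the only tested Schwann cell gene, had a difference of 0.12, and no milk protein gene was high enough to test. The part of these tissues in the differences above was not tested.

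The median difference varied with transcript length, from above 0 for short genes to below 0 for long genes. Over genes whose longest annotated transcript is up to 1000 bases the median difference was 0.46, over 1001 to 2000 bases 0.27, over 2001 to 4000 bases -0.027 and over 4000 bases -0.25. With 5 libraries these medians were 0.32, 0.21, 0.0049 and -0.17. The gradient was steepest in TIS sEV replicate 2, from 0.81 to -0.36, then in replicate 3, from 0.48 to -0.23, and in replicate 1 it ran from 0.15 to -0.097. The saline libraries stayed between -0.078 and 0.13. Saline replicate 1 also ran downward, from 0.13 to -0.045. In saline replicates 2 and 3 the medians ran from -0.078 to 0.035 and from -0.067 to 0.015.

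Several lists lie at the ends of this range. The respiratory chain genes had a median longest transcript of 1005 bases, and the 28 members of up to 1000 bases had a median difference of 0.69, against 0.46 for all tested genes of that length. The 9 members of 2001 to 4000 bases had 0.40, against -0.027. Ribosomal protein genes of up to 1000 bases had 0.32, below the 0.46 of their length. Proteasome genes of 1001 to 2000 bases, 18 of the 31, had 0.33 against 0.27 for all genes of that length, and 0.25 against 0.21 with 5 libraries. The 10 of 2001 to 4000 bases had 0.45, and 0.28 with 5 libraries. T cell genes of that length, 7 in number, had 0.51. All 15 basement membrane genes were over 4000 bases, with -0.87 against -0.25. The 15 leading higher genes of the 6-library fit had a median longest transcript of 1861 bases and the 15 leading lower genes of 4619. The part of transcript length in each result was not tested beyond these values.

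**Figure D5:**
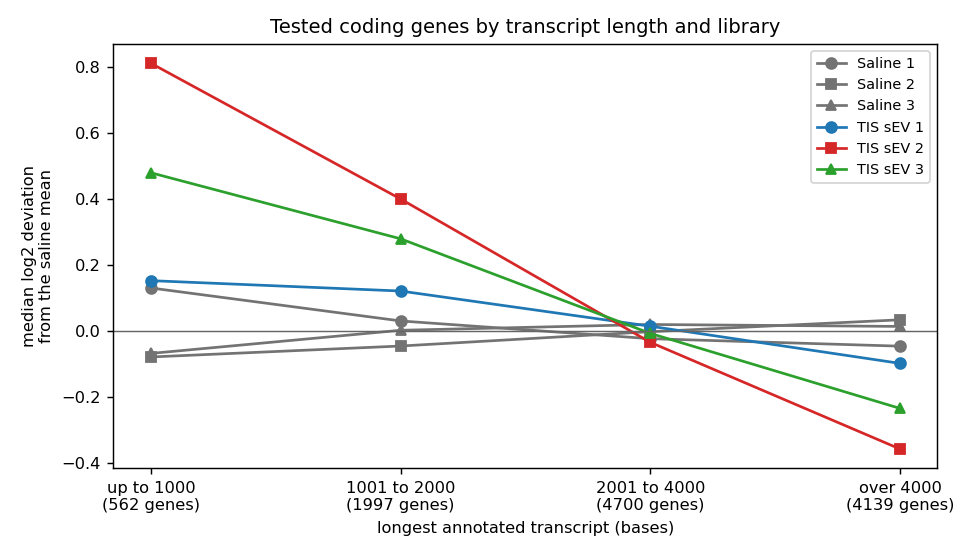
Median log2 deviation from the mean of the saline libraries (y axis) of tested coding genes in 4 classes of longest annotated transcript (x axis, in bases), with 1 line per library. The TIS sEV lines slope down, most in replicate 2 (0.81 to -0.36) and least in replicate 1 (0.15 to -0.097), and the saline lines stay between -0.078 and 0.13. The line of saline replicate 1 also slopes down, from 0.13 to -0.045.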

How the data were processed

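Tumour RNA libraries of 3 saline and 3 TIS sEV samples were compared. The authors deposited 1 table of TPM values for 55487 genes. The submitters' processing notes name Salmon 1.4.0, Trim Galore 0.6.6, DESeq2 1.28.0 and FastQC 0.11.9 and the build GRCm38.p6, and the transcript annotation is not given in the sources used here. GENCODE M21 (55227 identifiers matched) gave gene types, symbols, coordinates and transcript lengths. Nuclear coding genes, 490 immunoglobulin and T cell receptor segments included, were rescaled to 1000000 TPM per library and divided by median-of-ratios size factors. limma 3.58.1 in R 4.3.3 (trend, two-sided) tested log2(value + 1), with a pseudocount of 1, and was tested on simulated data. The members and the 49 gene lists were chosen with earlier results of these data known. Named genes were the 15 with the smallest p per direction and fit, with at least 5 coding TPM in the higher group, no overlap between groups and no predicted or clone name, none of which passed the threshold, together with list members and 12 single genes. Lists are described by counts and medians, without a test. Other scalings, filters, pseudocounts, variance settings and left-out libraries were tried.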

Additional observations from a re-analysis of the deposited data

How the results depend on the processing

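With 6 libraries the count of genes at an adjusted p under 0.05 (limma) was 23 on deposited TPM without rescaling, 14 higher and 9 lower, and 1 without the filter on low values. Leaving out each library in turn gave 0 to 10 genes, with 10 without TIS sEV replicate 1 and 0 without any other library. With 5 libraries the count was 72 on deposited TPM, 51 higher and 21 lower, 1 with rescaling but no size factors, and 0 to 2 when 1 more library was left out, with 2 without saline replicate 3. Every other setting gave 0 genes in both fits. Deposited TPM moved the median of all tested genes to -0.62 and rescaling alone to -0.31, from -0.039. Relative to these medians, the signs of all lists but those named above held under every scaling. Their sizes varied. Under quantile normalization the respiratory chain went from 0.60 to 0.29 and the proteasome from 0.41 to 0.13. Tubulins went from 0.44 to 0.10 and cytosolic ribosomal proteins from 0.34 to 0.0013. Some lists moved away from 0, such as glycolysis and hypoxia, from -0.22 to -0.55. With a replicate block there were 0 genes in both fits, against 0 without it. The labels do not say that equal replicate numbers share an animal, litter or day. Deviations of same-numbered libraries from their group means correlated at -0.288, -0.016 and -0.043 across genes. With 3 libraries per group these values cannot decide whether the samples are paired. None of the 43 named genes changed sign under any alternative. Without TIS sEV replicate 2, 6 of 46 list medians had the other sign, and at most 7 had it without any other library. TPM keeps no depth, so no counting error can be given.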
